A study of Mus musculus with 2 samples.

Results

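The genes described here are 10 genes for collagen IV and laminin, the main building blocks of basement membranes: Col4a1, Col4a2, Col4a3, Col4a4, Col4a5, Lama1, Lama5, Lamb1, Lamb2 and Lamc1. They were chosen by name among 21923 protein coding genes, and their peaks are those that overlap the gene body or the 2 kb upstream of it in the GENCODE M21 annotation of mm10. These peaks made 128 distinct regions of 176056 in both peak lists. Open chromatin was measured by single-nucleus ATAC-seq, in which a transposase cuts accessible DNA, in kidneys of B6 mouse embryos at E15.5. The Enl-T1 library came from Enl flox-T1/+ Wt1 GFPCre/+ kidneys, in which Cre switches on a small in-frame insertion in ENL (Mllt1), a chromatin reader, as found in Wilms tumour. The Enl-WT library came from Enl +/+ Wt1 GFPCre/+ kidneys. Both groups therefore carried the Wt1 GFPCre knock-in, which takes out 1 copy of Wt1, and Cre from it acts in the nephron and stromal lineages but not in the ureteric epithelium or endothelium. The number of embryos per library and their sex are not given in the sources used here, and ATAC counts cannot check the knock-in.

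Basement membranes are thin sheets of matrix under epithelia and around vessels. Collagen IV chains wind into trimers that join into a network, and laminins are trimers of an alpha, a beta and a gamma chain that bind cell surface receptors and polymerise. In the kidney, Col4a1 and Col4a2 encode the chains of nearly all basement membranes, while Col4a3, Col4a4 and Col4a5 encode those of the mature glomerular basement membrane, made by podocytes and altered in Alport syndrome. Lama1 and Lamb1 encode chains of the early nephron's laminin, Lama5 and Lamb2 those that replace them in the glomerulus, and Lamc1 the gamma chain that these laminins share. Accessibility of a gene is not its expression, which was not measured here.

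There was 1 library per group, so library and genotype cannot be told apart, no test was possible, and the intervals below are 95% intervals that cover counting error only. The Enl-WT library held 138176616 counts in 9628 barcodes and the Enl-T1 library 110265593 in 13376, of which 9472 and 12635 with 2000 to 100000 counts were kept, at a median of 14789.5 and 8753 counts. The libraries shared 169 barcodes (1.76% of those of Enl-WT, 1.26% of Enl-T1). Values are CPM, counts scaled to the summed counts of the 110706 regions found in both peak lists. Nuclei were grouped into marker-named classes after clustering without the regions of these genes, and a class is called "-like" because its name rests on markers alone. The 1938 nephron progenitor-like nuclei of Enl-WT and the 4263 of Enl-T1 lay in different clusters: cluster 2 in Enl-WT (1906 nuclei, against 86 of Enl-T1), and clusters 0 and 6 in Enl-T1 (2952 and 1225 nuclei, against 25 and 7). Interstitial stroma-like nuclei numbered 2654 and 4589, ureteric epithelium-like 882 and 1721, endothelium-like 713 and 511, and smooth muscle or ureteric stroma-like 288 and 166. Of the differentiated nephron there were 339 podocyte-like, 536 early nephron-like, 784 proximal tubule-like and 746 distal or loop-like (loop of Henle) nuclei with Enl-WT, as opposed to 0, 101, 33 and 77 with Enl-T1.

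The members differed widely in how many peaks they carried. Col4a1 (chr8:11198423-11312826, minus strand, ENSMUSG00000031502.11) held 16 shared regions and Col4a2 (chr8:11312805-11449287, plus strand, ENSMUSG00000031503.13) also held 16. Both run in opposite directions from 1 start site region, chr8:11312332-11313281, and their annotated 5' ends overlap. Col4a3 (chr1:82586921-82722059, plus strand, ENSMUSG00000079465.8) held 5 shared regions and Col4a4 (chr1:82448423-82586849, minus strand, ENSMUSG00000067158.9) held 8, again with 1 common start site region, chr1:82586358-82587390. Counts in a common start site region cannot be split between the genes of a pair. Col4a5 (chrX:141475385-141689234, plus strand, ENSMUSG00000031274.16) held 2 regions, both of which also lie in the window of its neighbour Col4a6. Among the laminins, Lamc1 (chr1:153218922-153332786, minus strand, ENSMUSG00000026478.14) held 11, Lamb1 (chr12:31265234-31329644, plus strand, ENSMUSG00000002900.16) 7, Lama1 (chr17:67697259-67822647, plus strand, ENSMUSG00000032796.8) 5, Lama5 (chr2:180176373-180225859, minus strand, ENSMUSG00000015647.9) 4 and Lamb2 (chr9:108479736-108490530, plus strand, ENSMUSG00000052911.9) 3. One of the regions of Lamb2 also overlaps Usp19.

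The DNA between the starts of Col4a3 and Col4a4 is short. It is shown whole, from the mm10 plus strand at chr1:82586850-82586920, because 1 stretch of 71 bases serves both genes of the glomerular network.
Col4a3/Col4a4: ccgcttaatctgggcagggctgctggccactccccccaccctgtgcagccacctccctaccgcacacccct
Of these bases 69.0% were G or C, and none of the 7 motifs searched on both strands was found. These were the GC box written GGGCGG, the CCAAT box by those letters, the TATA box as TATAAA, the AP-1 site as TGANTCA, the HNF1 half-site as GTTAAT, the HNF4 site as CAAAGTCC and the TEAD site as GGAATG. Of the 10 members, 7 are in the RefSeq promoter table for mouse, which covers 250 bases before to 50 after a start. Their median G and C content was 63.7%, against 52.7% over all 32851 promoters. Col4a3, Lama1 and Lamc1 are not in that table.

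Within the Enl-WT library, the genes of the common collagen IV network were most open in smooth muscle or ureteric stroma-like nuclei. Col4a1 was highest in smooth muscle or ureteric stroma-like nuclei at 240 CPM (218 to 263), followed by proximal tubule-like at 213 (200 to 225) and endothelium-like at 194 (182 to 208), and the intervals of these neighbours overlap. It stood at 179 in early nephron-like, 171 in distal or loop-like, 165 in stroma-like, 124 in progenitor-like, 117 in ureteric epithelium-like, 108 in podocyte-like and 81.4 in immune-like nuclei. Col4a2 was likewise highest in smooth muscle or ureteric stroma-like nuclei at 228 CPM, endothelium-like at 224 and early nephron-like at 218, with overlapping intervals, and lowest in ureteric epithelium-like at 100.01 (92.3 to 108) and immune-like at 82.4 (58.9 to 112). In Enl-T1 the leading classes of both genes were smooth muscle or ureteric stroma-like (224 and 226 CPM) and endothelium-like (197 and 222).

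The genes of the glomerular network were low and had an order of their own. Col4a3 was highest in podocyte-like nuclei of Enl-WT at 62.2 CPM (51.4 to 74.7), then in stroma-like at 52.9 (49.4 to 56.5), smooth muscle or ureteric stroma-like at 46.8 and endothelium-like at 42.2, and stood at 24.0 (20.1 to 28.5) in proximal tubule-like nuclei. Col4a4 was highest in smooth muscle or ureteric stroma-like nuclei at 69.5 (58.2 to 82.2) and stroma-like at 68.9 (65.0 to 73.0), followed by podocyte-like at 53.0 (43.0 to 64.6). Their common start site region held 18.4 CPM (12.7 to 25.7) in podocyte-like nuclei and 12.2 (9.62 to 15.3) in ureteric epithelium-like, with overlapping intervals. It held 10.65 in distal or loop-like, 10.03 in smooth muscle or ureteric stroma-like, 8.57 in endothelium-like, 7.94 in progenitor-like, 7.33 (6.08 to 8.76) in stroma-like, 6.67 in early nephron-like, 5.91 (4.05 to 8.35) in proximal tubule-like and 2.06 in immune-like nuclei. It was open in 8.85% of podocyte-like and 4.30% of stroma-like nuclei of Enl-WT, and in 2.79% (1.30 to 5.19) and 1.09% (0.726 to 1.56) when each nucleus was brought to 3000 counts. Col4a5 was low throughout, from 18.8 CPM (15.3 to 22.8) in proximal tubule-like to 9.26 (5.49 to 14.6) in smooth muscle or ureteric stroma-like and 2.06 (0.0522 to 11.5) in immune-like nuclei.

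The laminin alpha chains were highest in epithelia. Lama1 stood at 126 CPM (116 to 135) in proximal tubule-like and 119 (109 to 128) in distal or loop-like nuclei of Enl-WT, which overlap. It was lower in ureteric epithelium-like (78.8), early nephron-like (75.0), podocyte-like (52.5) and progenitor-like nuclei (46.8), and lowest in endothelium-like (40.6), stroma-like (35.0), smooth muscle or ureteric stroma-like (34.2) and immune-like nuclei (24.7). Lama5, the alpha chain of the mature glomerulus and of most mature epithelia, was highest in podocyte-like at 113 (98.0 to 129) and ureteric epithelium-like nuclei at 94.5 (86.9 to 103), with overlapping intervals, and lowest in stroma-like nuclei at 26.6 (24.2 to 29.2). Lamb1 was highest in early nephron-like (130, 119 to 142) and proximal tubule-like nuclei (111, 102 to 120) and low in endothelium-like (52.0). Lamc1 ran from 203 in ureteric epithelium-like to 133 in stroma-like nuclei and 97.9 in immune-like. Lamb2 was the flattest member, between 81.4 in distal or loop-like and 105 in endothelium-like nuclei, with immune-like at 53.6 (35.0 to 78.5). Per kb of peak Lamb2 had the highest level of all members in the whole Enl-WT library, 26.5 CPM per kb, against 14.1 for Lamc1, 13.1 for Lama5 and 5.81 for Col4a4.

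**Figure D1:**
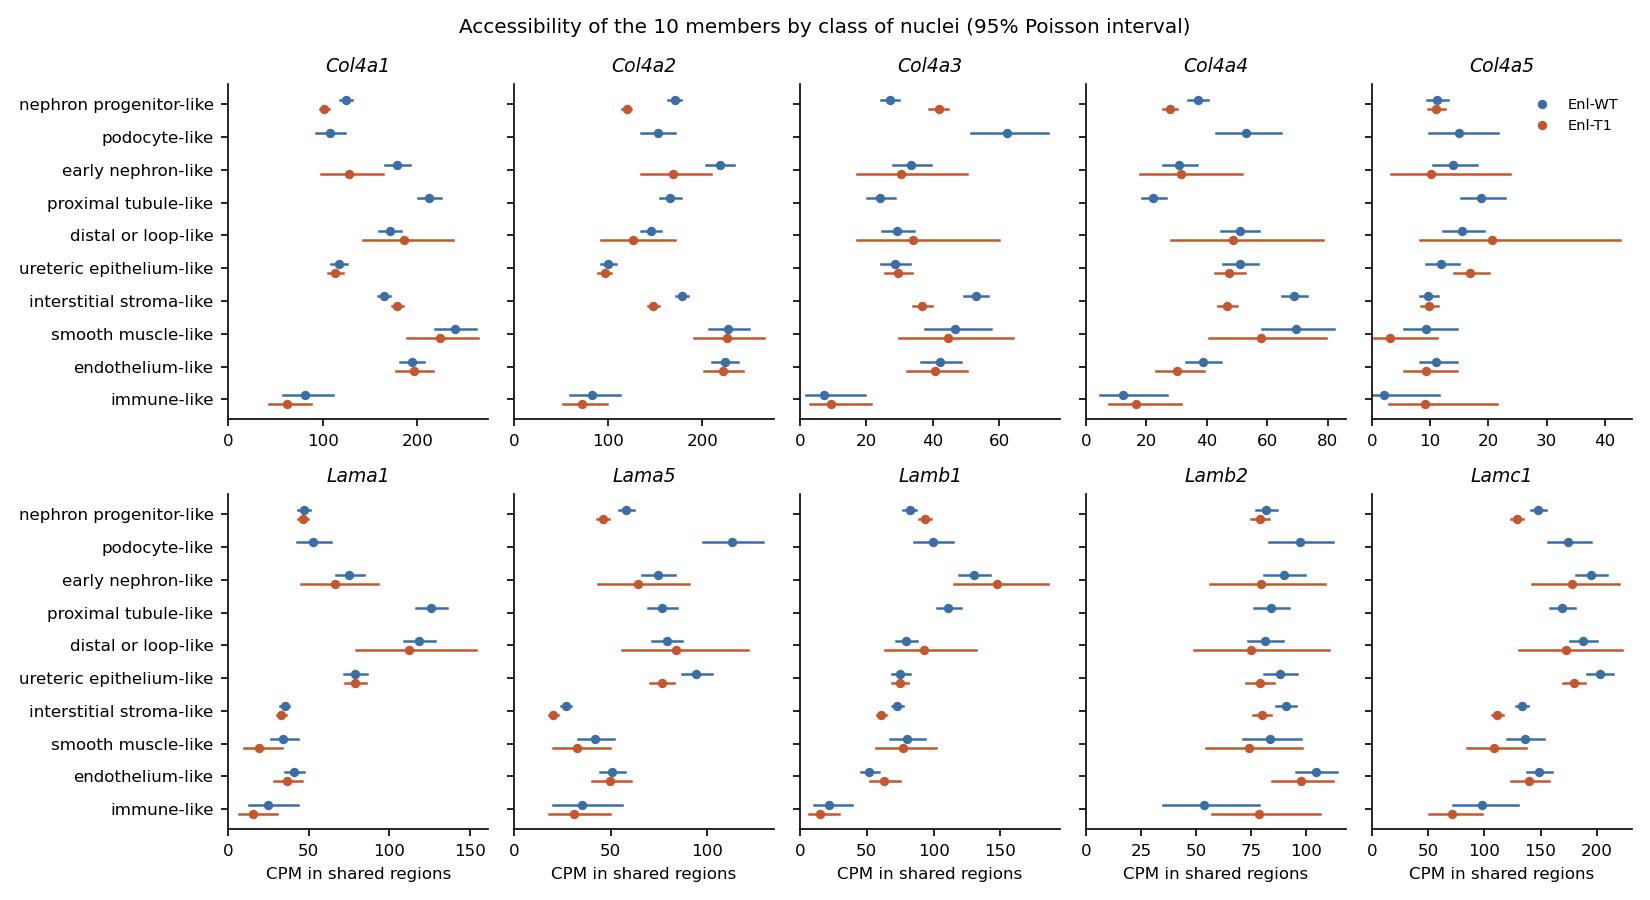
Level of each member (x axis, CPM in shared regions over gene body and 2 kb upstream) in each class of nuclei (y axis); points are library sums, blue for Enl-WT and orange for Enl-T1, and lines are 95% Poisson intervals. Col4a1 and Col4a2 are furthest right in smooth muscle-like nuclei (240 and 228 CPM in Enl-WT), Lama1 in proximal tubule-like (126), and Lama5 and Col4a3 in podocyte-like nuclei (113 and 62.2); podocyte-like and proximal tubule-like classes have no Enl-T1 point because under 50 nuclei were found.

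Genes of a pair varied together over the classes. Over the 18 combinations of class and library with at least 50 nuclei, Pearson's r of log2(CPM + 1) was 0.838 between Col4a1 and Col4a2 and 0.813 between Col4a3 and Col4a4, the head-to-head pairs, whose sums share their start site region. Among genes on different chromosomes it was 0.879 between Lama1 and Lamc1, 0.818 between Lama5 and Lamc1, 0.803 between Lamb1 and Lamc1 and 0.785 between Lama1 and Lama5. Lama5 had r = -0.02 with Col4a2 and -0.002 with Col4a1. These values are descriptions, since the points share libraries and depth and the immune-like points, low for most genes, weigh on them.

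By the same measure the genes elsewhere most like each member were Ddah1 (r = 0.939), Adamts1 (0.921) and Phldb1 (0.909) for Col4a1, and Pla2g2c (0.926), Adgrd1 (0.924) and Rbpms (0.920) for Col4a2. For Col4a3 they were Zfp423 (0.939), Vangl1 (0.933) and Pcdh19 (0.932), and for Col4a4 Sox5 (0.936), Kcnq1 (0.908) and Eml1 (0.895). For Col4a5 they were Napb (0.936), Kcnf1 (0.926) and Mapt (0.918). For Lama1 they were Nat8f2 (0.964), Phyhipl (0.956) and Cpm (0.946), and for Lama5 Prr15 (0.903), Celsr1 (0.893) and Lrrc8d (0.891). Lamb1 was most like Rxfp2 (0.947), Klhl29 (0.937) and Alkal1 (0.932), Lamb2 like Mrgpre (0.850), Fam163b (0.840) and Tanc1 (0.826), and Lamc1 like Prrg4 (0.931), Ptpn14 (0.929) and Rassf10 (0.929).

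Over the whole kidney each member was level or lower in Enl-T1. A value is called higher or lower here where the log2 ratio of Enl-T1 to Enl-WT is 0.5 or more in size with at least 200 counts in both libraries together. None of the 10 members reached this in either direction, against 1.55% of all genes higher and 1.41% lower, and their median was -0.23 against -0.03 over all genes. Scaled to all peaks of each library the median was -0.14, 8 of the 10 ratios moved beyond their intervals and that of Lamb1 changed sign (0.00643). The lowest were Lama5, from 57.7 to 41.9 CPM (log2 ratio -0.46, -0.54 to -0.38), Lama1, from 60.7 to 46.1 (-0.40, -0.47 to -0.32), and Col4a2, from 170 to 133 (-0.35, -0.40 to -0.31). Col4a3 was level at 37.1 and 37.0 CPM (interval of the ratio -0.09 to 0.08). In such sums fewer nuclei of a type and less accessibility per nucleus cannot be told apart. For Lama1 the ratios within classes were smaller: -0.01 (-0.16 to 0.14) in progenitor-like, -0.09 (-0.25 to 0.08) in stroma-like nuclei, and 0.00 (-0.17 to 0.18) for the ureteric epithelium. The proximal tubule-like and distal or loop-like nuclei, where Lama1 was most open, made up 8.28% and 7.88% of the library in Enl-WT. In Enl-T1 they made up 0.261% and 0.609%. The part of this in the whole-kidney ratio of Lama1 was not tested.

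**Figure D2:**
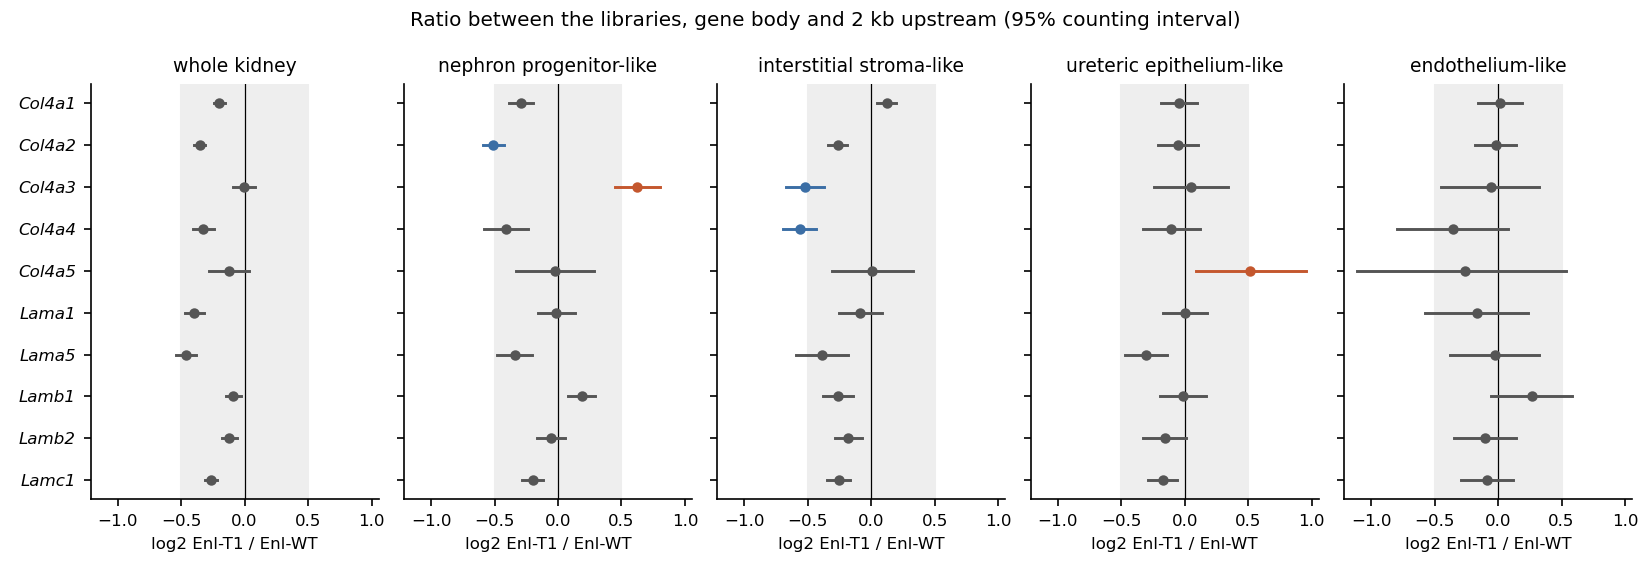
log2 ratio of Enl-T1 to Enl-WT (x axis) for each member (y axis) over the whole kidney and in 4 classes, with 95% counting intervals; the grey band spans -0.5 to 0.5 and points past it are coloured. Col4a3 lies at 0.63 in progenitor-like and -0.52 in stroma-like nuclei, Col4a2 at -0.51 in progenitor-like and Col4a4 at -0.56 in stroma-like nuclei, and most other points lie inside the band.

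Nephron progenitors self-renew and form the nephron. In nuclei of the progenitor-like class, which lay mostly in different clusters for Enl-WT and Enl-T1, the collagen IV genes moved apart. Col4a3 was higher in Enl-T1, at 41.7 CPM (1678 counts) against 27.0 (736 counts), a 1.54-fold difference (log2 0.63, 0.45 to 0.81). Col4a2 was lower, at 120 against 171 CPM (0.701-fold, log2 -0.51, -0.59 to -0.43). That is 1 member of 10 in each direction, against 2.27% of all genes higher and 3.11% lower. The remaining collagen genes did not reach the threshold: Col4a4 went from 37.0 to 27.8 CPM (-0.41, -0.59 to -0.23) and Col4a1 from 124 to 102 (-0.29, -0.39 to -0.20). Col4a3 and Col4a4, which share a start site region, thus had ratios of opposite sign, while the region itself was level at 7.94 and 7.68 CPM (-0.05, -0.41 to 0.32). With regions of at least 80% reciprocal overlap alone the ratio of Col4a3 was 0.38 (0.10 to 0.67) and that of Col4a2 -0.37 (-0.47 to -0.26), both short of the threshold. Per base of peak both also fell short (0.496 and -0.45), as did Col4a2 without doublets (-0.48). At equal depth Col4a2 was at -0.41, which is a ratio of shares of nuclei with a count and not of CPM.

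Of the laminin genes in progenitor-like nuclei, none passed the threshold over the gene body. Lama5 had the lowest ratio, from 58.1 to 45.9 CPM (-0.34, -0.48 to -0.20), Lamc1 went from 148 to 129 (-0.20, -0.28 to -0.11), and Lamb1 from 82.2 to 93.6 (0.19, 0.08 to 0.30). Lama1 (46.8 and 46.4 CPM) and Lamb2 (82.0 and 79.1) had intervals that hold 0, as had Col4a5 (11.1 and 10.96). The median of the 10 members was -0.13, against 0.01 over all genes.

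Lamb1 was the member whose start site region was called higher in progenitor-like nuclei. This region held 13.96 CPM (12.05 to 16.1) in progenitor-like nuclei of Enl-WT and 20.8 (18.9 to 22.9) in those of Enl-T1, a log2 ratio of 0.58 (0.33 to 0.83). It was 1 of 8 start site regions of the members past 0.5 in this class, where 2.05% of all start site regions were higher and 2.83% lower, and no member's start site region was lower by that much. Unthinned, 9.29% of Enl-WT and 9.66% of the shallower Enl-T1 nuclei were open there. At 3000 counts per nucleus the expected shares were 2.12% (1.52 to 2.87, 1917 nuclei) and 3.32% (2.80 to 3.91, 4207 nuclei), and at 5000 counts 3.54% and 5.45%. In stroma-like nuclei the same region held 19.2 and 16.9 CPM (-0.19, -0.42 to 0.04), in ureteric epithelium-like 23.3 and 21.4 (-0.12, -0.45 to 0.22), and in endothelium-like 11.6 and 18.01 (0.63, -0.02 to 1.27). The 200 bases before the start, chr12:31265034-31265233 on the mm10 plus strand, are shown because they lie in this region. Counts are per region and do not place the difference within it. In capitals are a CCAAT box and the reverse complement of the GC box (CCGCCC, found 2 times).
Lamb1 promoter: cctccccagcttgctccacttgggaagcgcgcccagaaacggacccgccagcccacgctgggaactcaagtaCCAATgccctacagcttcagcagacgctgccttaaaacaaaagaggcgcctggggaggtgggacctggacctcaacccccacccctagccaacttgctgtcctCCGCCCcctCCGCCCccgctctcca
Of all RefSeq promoters, 37.4% hold a CCAAT and 35.7% a GC box. These matches are letters in a window and were not tested as binding sites.

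The start site region of Lamc1 was the most open of the members' and had a ratio below 0 in each group of nuclei given here. The region was called lower only in smooth muscle or ureteric stroma-like nuclei. There it went from 104 to 73.2 CPM (-0.51, upper limit -0.05), on 406 and 95 counts. In the other groups given, the ratio of the region was short of -0.5. It went from 106 to 80.05 CPM over the whole kidney (-0.40, -0.46 to -0.35), from 98.4 to 77.1 in progenitor-like nuclei (-0.35), from 101 to 81.3 in stroma-like (-0.31), from 107 to 81.3 in ureteric epithelium-like (-0.40) and from 113.6 to 92.1 in endothelium-like nuclei (-0.30). The peak spans 1802 bp in the Enl-WT list but 1031 bp in the Enl-T1 list, and without this and other regions of under 80% reciprocal overlap the ratio of the Lamc1 gene in progenitor-like nuclei was 0.03 (-0.12 to 0.18) in place of -0.20. At 3000 counts per nucleus the region was open in 13.4% and 11.05% of progenitor-like nuclei.

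Single regions differed more than whole genes. Among 56 member regions with enough counts in progenitor-like nuclei, 5 were higher (8.93%, against 13.6% of all regions) and 14 lower (25%, against 14.9% of all regions), with a median of -0.14 against 0.00. Of the 14 lower regions 11 were in collagen IV genes, which held 34 (60.7%) of the 56 regions measured, and regions of 1 gene are not independent. The Col4a1 region at 114.17 kb from its start, over the 3' UTR (chr8:11198169-11199134), had the highest ratio at 1.52 (0.81 to 2.29), from 1.51 to 4.33 CPM, on 41 and 174 counts and peaks of 595 and 966 bp. The next were both in Col4a3: an intron region at 10.43 kb (chr1:82596660-82598043) with 1.29 (0.73 to 1.88), and a coding exon region at 54.81 kb (chr1:82641300-82642160) with 0.95 (0.33 to 1.62), from 2.13 to 4.13 CPM. The lowest was an intron region of Col4a2 at 99.08 kb (chr8:11411451-11412320), from 7.02 to 1.94 CPM (-1.86, -2.43 to -1.30). It was followed by intron regions of Col4a1 at 28.44 kb (chr8:11283936-11284839), from 6.17 to 2.34 CPM (-1.40, -1.95 to -0.87), and of Col4a4 at 110.05 kb (chr1:82476335-82477262), from 13.4 to 5.30 CPM (-1.34, -1.70 to -0.99).

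Some of these regions had ratios of different sign in other classes and others did not. The Col4a1 region at 114.17 kb was above 0 in each class compared, for example 1.21 (0.40 to 2.09) for stroma-like nuclei, though these other classes were under the minimum of counts. The Col4a2 region was at 4.98 and 5.79 CPM in stroma-like nuclei (0.22, -0.21 to 0.65). The Col4a1 region at 28.44 kb was at 15.2 and 19.3 CPM in endothelium-like nuclei (0.34, -0.26 to 0.93), its most open class of those compared. The Col4a4 region was also lower in stroma-like nuclei, from 13.3 to 8.40 CPM (-0.66, -0.97 to -0.36), and at -0.35 (-0.80 to 0.09) in ureteric epithelium-like nuclei. The Col4a3 intron region was the reverse in stroma-like nuclei, as given below.

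**Figure D3:**
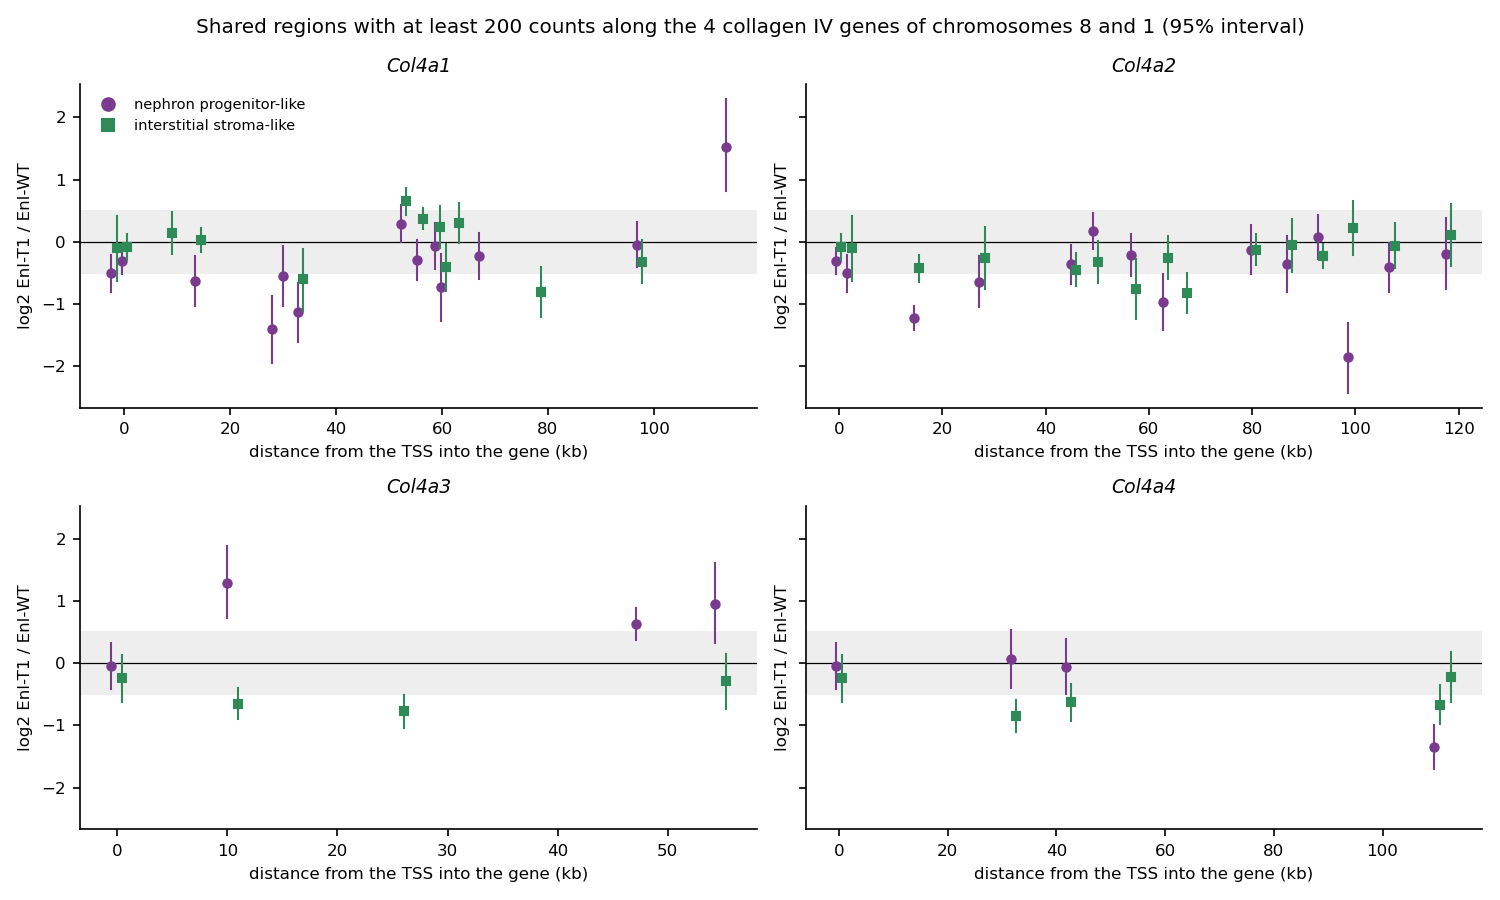
log2 ratio of Enl-T1 to Enl-WT (y axis) of each shared region with at least 200 counts along Col4a1, Col4a2, Col4a3 and Col4a4, against its distance from the transcription start site in kb (x axis); circles are progenitor-like and squares stroma-like nuclei, lines are 95% counting intervals and the grey band spans -0.5 to 0.5. The lowest circle is the Col4a2 region at 99.08 kb (-1.86), and at 10.43 kb in Col4a3 the circle lies at 1.29 and the square at -0.65.

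The central 300 bases of the Col4a3 and Col4a2 regions are shown, from the mm10 plus strand. In progenitor-like nuclei these whole regions had the largest differences among intron regions in each direction. Capitals mark motif matches: in Col4a3 (chr1:82597202-82597501) the reverse complements of GGAATG and TATAAA, and in Col4a2 (chr8:11411736-11412035) an AP-1 site of the form TGANTCA.
Col4a3 intron region: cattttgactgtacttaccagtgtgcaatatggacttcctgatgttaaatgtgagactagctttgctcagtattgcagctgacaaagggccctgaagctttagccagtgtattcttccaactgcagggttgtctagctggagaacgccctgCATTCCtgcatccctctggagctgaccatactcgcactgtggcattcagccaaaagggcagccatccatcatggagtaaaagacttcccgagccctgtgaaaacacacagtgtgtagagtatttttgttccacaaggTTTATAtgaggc
Col4a2 intron region: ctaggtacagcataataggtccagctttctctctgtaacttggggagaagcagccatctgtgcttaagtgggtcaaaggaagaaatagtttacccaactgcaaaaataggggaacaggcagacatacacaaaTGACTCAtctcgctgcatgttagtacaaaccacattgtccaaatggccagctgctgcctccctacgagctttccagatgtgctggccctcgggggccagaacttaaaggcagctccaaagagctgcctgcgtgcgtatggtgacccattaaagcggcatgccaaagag
Over central windows of this length in 176005 regions, 18.8% held GGAATG, 15.6% TATAAA and 10.7% TGANTCA, so such matches are common and describe the letters only.

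In interstitial stroma-like nuclei, the support cells between nephrons, Col4a3 and Col4a4 were both lower in Enl-T1. Col4a3 was at 52.9 CPM without and 36.8 with the mutation (-0.52, -0.67 to -0.37), and Col4a4 at 68.9 and 46.7 (-0.56, -0.69 to -0.43). That is 2 members of 10 lower, where 1.27% of all genes were lower, and no member higher, where 1.71% of all genes were. The count lower was 1 with a minimum of 5000 counts, at equal depth or with the members in the clustering, and 0 at start sites. Col4a2 went from 178 to 148 CPM (-0.27, -0.34 to -0.19), Lama5 from 26.6 to 20.4 (-0.39, -0.59 to -0.18), Lamb1 from 72.9 to 60.8 (-0.26, -0.38 to -0.14), Lamc1 from 133 to 112 (-0.26) and Lamb2 from 90.7 to 80.002 (-0.18). Col4a1 was at 165 and 179 CPM (0.12, 0.05 to 0.19), and Lama1 and Col4a5 had intervals that hold 0. The median of the members was -0.26 and that of all genes -0.00.

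By region, 2 of 52 measured in stroma-like nuclei were higher (3.85%, against 9.89% of all regions) and 11 lower (21.2%, against 8.53%), 9 of the 11 in collagen IV genes, which held 34 (65.4%) of the 52. The highest ratios were at 30.87 kb in Lamb1 (2.35 to 4.03 CPM, 0.78; the peaks of 930 and 718 bp overlap by 23.7% of the wider), and at 52.73 kb (16.4 to 25.7 CPM, 0.65, 0.43 to 0.87) and 55.84 kb in Col4a1 (31.4 to 40.6 CPM, 0.37, 0.20 to 0.53). The lowest were at 32.05 kb in Col4a4 (20.8 to 11.6 CPM, -0.85, -1.10 to -0.60), 66.94 kb in Col4a2 (13.2 to 7.41 CPM, -0.83) and 78.21 kb in Col4a1, over a coding exon (8.54 to 4.90 CPM, -0.80; 2 peaks of 1088 bp together in Enl-WT joined to 1 of 799 bp in Enl-T1). The last of these was also lower in endothelium-like nuclei (32.2 to 22.8 CPM, -0.50, -1.01 to -0.01). The regions of Col4a2 at 66.94 kb and of Col4a1 at 52.73 kb, by contrast, were level there or under the minimum, at 28.9 and 28.0 CPM and at 8.14 and 7.004.

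The Col4a3 intron region at 10.43 kb was also read cluster by cluster. The region spans 1384 bp in the Enl-WT peak list and 910 bp in the Enl-T1 list, with 65.8% reciprocal overlap. Summed by class it went from 2.50 to 6.09 CPM in progenitor-like nuclei (68 and 245 counts). In stroma-like nuclei it went from 20.0 to 12.7 CPM (663 and 454 counts, log2 ratio -0.65, -0.91 to -0.41). In progenitor-like cluster 2 of Enl-WT it was at 2.45 CPM (1.68 to 3.44), at 7.52 (6.14 to 9.12) in Enl-T1 cluster 0 and in Enl-T1 cluster 6 at 3.25 (1.97 to 5.04), so the higher value lay in cluster 0. The 86 nuclei of Enl-T1 in cluster 2 gave 0 counts, which allows up to 9.02 CPM. In stroma-like nuclei it was at 16.6 and 14.9 CPM in cluster 1, 29.2 and 33.2 in cluster 4, 8.22 and 9.76 in cluster 5, and 14.9 (5.99 to 30.7, 79 nuclei) and 4.17 (2.25 to 7.05) in cluster 10. Cluster 8, nearly all Enl-T1, was at 10.6. Within clusters 1, 4 and 5 the values of the libraries had overlapping intervals. In cluster 10 the log2 ratio was -1.84 (-3.26 to -0.28), on 14 and 27 counts. The part of cluster makeup in the class sums was not tested.

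The Col4a3 gene was read by cluster in the same way. Its stroma-like ratio of -0.52 over the class was -0.21 (-0.46 to 0.03) in cluster 1, 0.01 (-0.29 to 0.30) in cluster 4, 0.25 (-0.20 to 0.70) in cluster 5 and 0.11 (-0.90 to 1.30) in cluster 10. Cluster 4, the most open for Col4a3 of these clusters at 71.7 and 72.3 CPM, contained 973 Enl-WT nuclei and 397 Enl-T1 nuclei. Against cluster 2 of Enl-WT, the progenitor-like ratio was 0.77 (0.58 to 0.96) in cluster 0 and 0.32 (0.07 to 0.58) in cluster 6, while the 86 Enl-T1 nuclei of cluster 2 itself gave -0.14 (-1.21 to 0.76). For Col4a2 it was -0.51 (-0.61 to -0.42) and -0.50 (-0.63 to -0.38), in these clusters and -0.21 (-0.61 to 0.16) in the 86 nuclei, and its intron region at 99.08 kb held 6.97 CPM in cluster 2 of Enl-WT but 1.64 and 2.58 in the Enl-T1 clusters. For Col4a4 in stroma-like nuclei the ratio of -0.56 over the class was -0.46 (-0.69 to -0.24), -0.39 (-0.71 to -0.08), -0.06 (-0.39 to 0.27) and 0.25 (-0.53 to 1.13) in clusters 1, 4, 5 and 10, short of -0.5 in each. For Col4a2 it was -0.17, -0.33, -0.41 and -0.62 in clusters 1, 4, 5 and 10. In progenitor-like nuclei the 8 stroma markers summed to 297 and then 308 CPM (log2 0.05), with 7 of 8 higher and none at 0. The 8 progenitor markers summed to 337 and 294 CPM (-0.20, -0.25 to -0.14), with 2 of 8 higher in Enl-T1. The 8 early nephron markers summed to 294 and 376 (0.35, 5 higher, 1 at 0 in both). The part of these markers in the Col4a3 result was not tested.

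**Figure D4:**
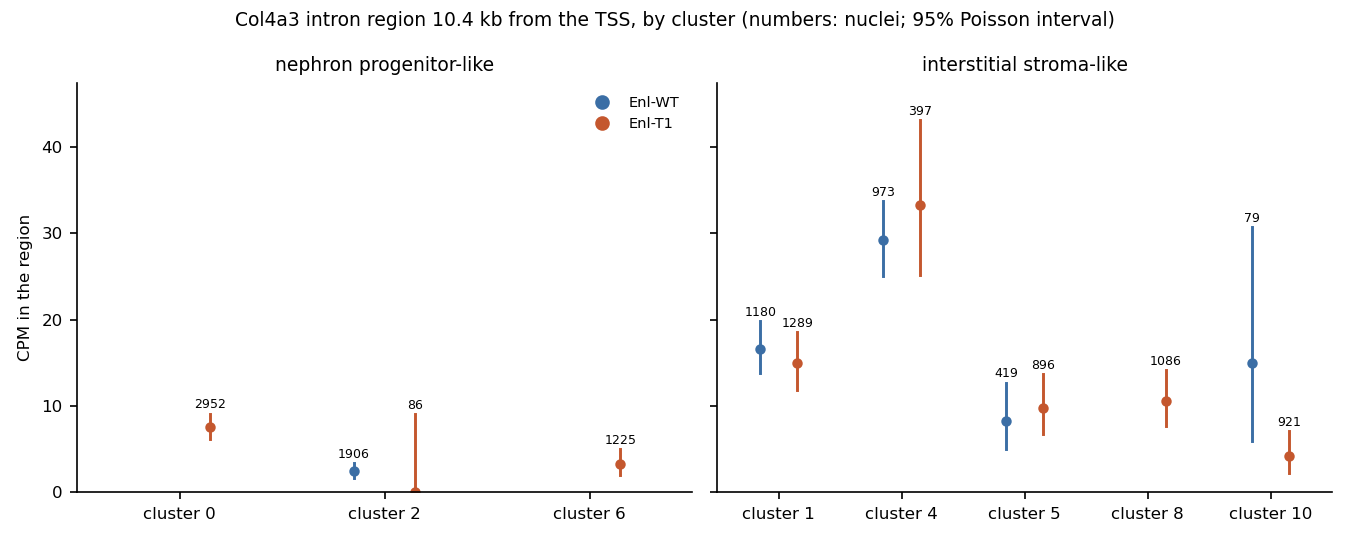
Level of the Col4a3 intron region at 10.43 kb (y axis, CPM) in each progenitor-like and stroma-like cluster (x axis) for Enl-WT (blue) and Enl-T1 (orange), with 95% Poisson intervals and the number of nuclei above each point. Cluster 0 of Enl-T1 (7.52 CPM) lies above cluster 2 of Enl-WT (2.45 CPM), and both libraries are highest in stroma-like cluster 4 (29.2 and 33.2 CPM).

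In ureteric epithelium and endothelium the Wt1 GFPCre allele is present but Cre is not active, and their values serve as a comparison. In ureteric epithelium-like nuclei Col4a5 went from 11.8 to 16.9 CPM (0.52, 0.09 to 0.95), the 1 member called higher, where 1.45% of all genes were higher, and none was lower, where 0.957% were. The call was lost with 80% overlap (0.49), at the start site alone (0.43), with TMM scaling (0.43), without doublets (0.48), per base of peak (0.42) and, for want of counts, at equal depth. Lama5, the main alpha chain of this epithelium, was at 94.5 and 76.4 CPM (-0.31, -0.47 to -0.14) and Lamc1 at 203 and 180 (-0.17). The other members, Col4a3 among them at 28.5 and 29.5 CPM, had intervals that hold 0, and the median was -0.05 against -0.02 for all genes. Col4a5 is X-linked and the sex of the embryos is not known, so a difference in sex between the libraries cannot be told apart from one between genotypes there. Of 33 member regions measured, 1 was higher (3.03%, all regions 5.58%) and 3 lower (9.09%, all regions 4.38%). In endothelium-like nuclei none of the 9 members with enough counts was called in either direction, where 1.8% of all genes were higher and 1.97% lower, with a median of -0.07 against -0.01. Col4a1 (194 and 197 CPM) and Col4a2 (224 and 222 CPM), both highly open there, had ratios of 0.02 and -0.02. None of 16 regions was higher (all regions 2.97%) and 2 were lower (12.5%, all regions 6.9%), both in collagen IV genes, which held 10 of the 16.

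For the classes with few nuclei of Enl-T1 the intervals are wide. In smooth muscle or ureteric stroma-like nuclei Col4a1 was at 240 and 224 CPM (-0.10, -0.37 to 0.18) and Lama1 at 34.2 and 19.3 (-0.83, -1.83 to 0.06). In early nephron-like nuclei Col4a1 went from 179 to 128 (-0.48, -0.87 to -0.11) and Lamb1 from 130 to 148 (0.18, -0.19 to 0.54). In distal or loop-like nuclei the intervals of all 10 members held 0. Podocyte-like and proximal tubule-like nuclei could not be compared.

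Among other basement membrane genes in progenitor-like nuclei, 1 gene was called in each list but that of the receptors, against the 2.27% of all genes higher and 3.11% lower given above. Of 7 other collagen IV and laminin chains 1 was higher and none lower (median -0.04). It was Lama2, the alpha chain known from muscle, at 43.0 and 77.1 CPM (0.84, 0.70 to 0.98), while Lamc3 (-0.26) and Lamb3 (-0.13) were lowest. Of 11 further components 10 had enough counts, with 1 lower and none higher (median -0.02): Nid1, which links laminin to collagen IV, from 12.6 to 7.58 CPM (-0.73, -1.06 to -0.41), next to Frem1 (-0.18), Nid2 (0.16) and Fras1 (0.24). None of 10 receptors was called (median -0.02). The integrin subunit Itga8, known from the progenitors themselves, was lowest, from 63.4 to 45.3 CPM (-0.48), followed by Itga2 (-0.28), and Itga3, a laminin receptor subunit, was highest, from 53.2 to 72.5 (0.45), followed by Ddr2 (0.34). Of 10 assembly and modifying genes 9 had enough counts, with 1 lower and none higher (median -0.19). It was Sparc, which encodes a collagen-binding protein, from 124 to 76.5 CPM (-0.69, -0.79 to -0.59), followed by Lox (-0.29), with P4ha1 (0.18) and P4ha2 (0.16) highest. In stroma-like nuclei 7, 10, 10 and 9 genes of these lists had enough counts, and 1 was called. It was Npnt, from 15.1 to 25.9 CPM (0.78), where 1.71% of all genes were higher and 1.27% lower. In ureteric epithelium-like nuclei 7, 11, 10 and 8 had enough counts, and 1 was called, Nid1. It went in the other direction, from 7.91 to 12.5 (0.66, 0.14 to 1.19), where 1.45% of all genes were higher and 0.957% lower. In endothelium-like nuclei 7, 10, 9 and 8 had enough counts. There Lama2 (0.76), Frem2 (0.53) and Ddr1 (0.51) were higher and Itgb4 lower (-0.53), where 1.8% of all genes were higher and 1.97% lower. The genes called outside progenitor-like nuclei were named after their values were seen.

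The share of the members' peaks in 1 list alone was above that of all peaks in Enl-WT and below it in Enl-T1. Of 123 peaks of Enl-WT, 46 (37.4%) had no overlapping peak in Enl-T1, against 30.002% of all its peaks, and of 83 peaks of Enl-T1, 8 (9.64%) had none in Enl-WT, against 13.4%. Lamc1 held 12 regions in Enl-WT alone, Col4a1 11, Col4a3, Col4a4 and Lama1 5 each, Lama5 and Lamb1 3 each, Col4a2 and Col4a5 1 each, and Lamb2 0. Peaks were called per library, the libraries differ in depth and in classes of nuclei, and a region absent from 1 list has no count there, so it cannot be compared in amount.

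Where the 46 regions were open in Enl-WT could be counted. The class with the highest CPM was proximal tubule-like for 13 (28.3%, against 16.5% of all regions in Enl-WT alone), 12 of them in laminin genes, and endothelium-like for 11 (23.9%, against 12.5%). It was podocyte-like for 7, early nephron-like for 5, smooth muscle or ureteric stroma-like for 4, ureteric epithelium-like for 3, distal or loop-like for 2 and stroma-like for 1. Progenitor-like nuclei led for none (0%, against 9.28%), nor did immune-like. Regions of 1 gene are not independent. Some leads rest on few counts, such as 12 in endothelium-like nuclei for the Col4a4 region at 39.16 kb. Of the members' 74 shared regions, progenitor-like nuclei of Enl-WT led for 2 (2.70%), proximal tubule-like for 14.9% and endothelium-like for 10.8%. The region upstream of Lamb1 at -1.35 kb (chr12:31263316-31264445), with 1711 counts, held 39.4 CPM in proximal tubule-like, 36.7 in distal or loop-like and 31.8 in ureteric epithelium-like nuclei, against 4.23 in progenitor-like and 2.71 in endothelium-like. A Lama1 intron region at 29.45 kb (chr17:67726184-67727243) held 29.8 CPM in proximal tubule-like, 9.29 in distal or loop-like and 0.735 in progenitor-like nuclei. Regions of Col4a1 at 15.26 kb (chr8:11297126-11298003) and Lama5 at 6.93 kb (chr2:180218396-180219471) were led by endothelium-like nuclei, at 31.8 and 32.6 CPM, and a region of Col4a1 at 109.33 kb (chr8:11202936-11204052) by podocyte-like nuclei, at 24.9. These 5 regions were singled out after their values were seen.

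**Figure D5:**
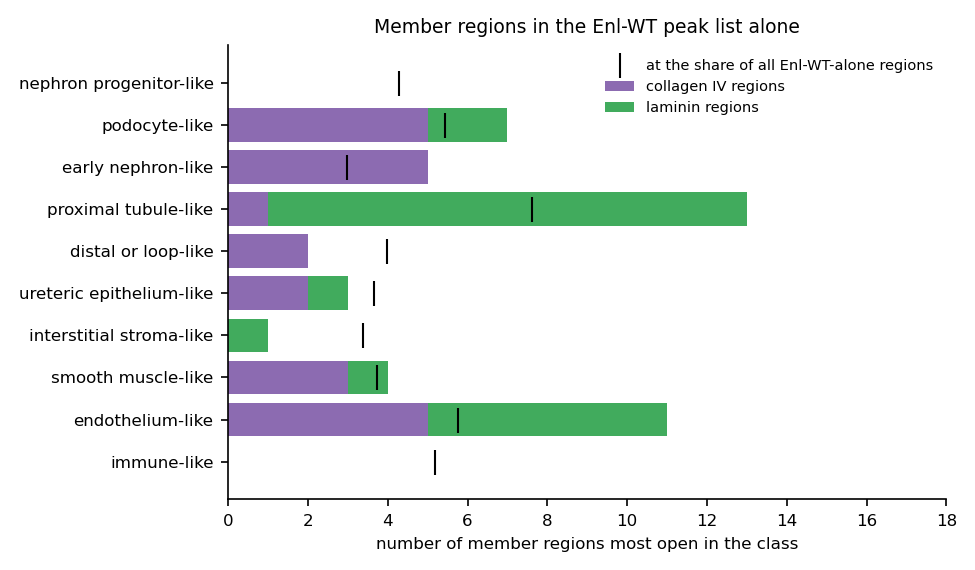
Number of member regions found in the Enl-WT peak list alone (x axis) by the class of Enl-WT nuclei in which they were most open (y axis), split into collagen IV and laminin genes; black ticks give the number expected at the share of all regions in Enl-WT alone. Proximal tubule-like nuclei lead for 13 regions, 12 of them in laminin genes, and endothelium-like nuclei for 11, while progenitor-like nuclei lead for 0.

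The central 300 bases of the regions of Lama1 (chr17:67726564-67726863) and Lamb1 (chr12:31263731-31264030) led by proximal tubule-like nuclei are shown, on the mm10 plus strand, with motif matches in capitals: the reverse complement of CCAAT in Lama1, and in Lamb1 a CCAAT and a TATAAA that overlap.
Lama1 intron region: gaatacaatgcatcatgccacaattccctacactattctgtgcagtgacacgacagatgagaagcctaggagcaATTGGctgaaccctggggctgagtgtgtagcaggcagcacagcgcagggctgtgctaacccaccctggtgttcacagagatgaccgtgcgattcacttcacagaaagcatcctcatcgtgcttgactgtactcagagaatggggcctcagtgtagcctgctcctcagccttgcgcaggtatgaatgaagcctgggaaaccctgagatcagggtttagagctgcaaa
Lamb1 upstream region: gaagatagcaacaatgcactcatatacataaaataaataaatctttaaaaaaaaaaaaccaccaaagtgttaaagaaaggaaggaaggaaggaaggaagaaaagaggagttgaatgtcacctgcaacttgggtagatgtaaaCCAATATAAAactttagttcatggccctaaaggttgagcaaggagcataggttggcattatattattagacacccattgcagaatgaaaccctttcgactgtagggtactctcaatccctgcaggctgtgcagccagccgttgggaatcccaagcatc
Of the windows over all regions, 31.7% held a CCAAT. Neither window held GTTAAT or CAAAGTCC, which 11.5% and 1.39% of windows held.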

How the data were processed

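Single-nucleus ATAC-seq of 2 libraries, Enl-WT and Enl-T1, was analysed from the raw counts per peak and barcode that the authors deposited. Per the study's methods the reads were aligned to mm10 with Cell Ranger ATAC 2.1.0, and peaks were called in each library separately; the counts were not normalised. Of the listed counts 80.1% and 81.2% were 2, so 2 counts stand for about 1 fragment, and intervals were computed on counts divided by 2. The study's filters on fragments and signal at start sites were not applied here, and no integration of the libraries was made.

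Barcodes with 2000 to 100000 counts were kept. Peaks that overlap by 1 bp were joined. Regions open in at least 0.5% of nuclei, without those of collagen IV and laminin genes, were given term frequency-inverse document frequency weights. The weights were reduced by singular value decomposition (components 2 to 30, scipy 1.17.1). Nuclei were then clustered on 15 neighbours (scikit-learn 1.9.0) with leidenalg 0.10.2 at resolution 1. Each cluster was named for its best class by mean log2 marker ratio (1 CPM added) if that was at least 0.4, at least 3 markers were raised by 0.5 or more at 5 CPM, and the lead over the next lineage was at least 0.2. Clusters 9, 16, 18 and 19 stayed unnamed. Podocyte, early nephron, proximal and distal classes were taken from resolution 2, because 1 cluster mixed podocyte and early nephron markers, a choice made after seeing the data. Doublets were left in.

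Levels have exact Poisson intervals and shares exact binomial ones. Ratios of class sums, scaled to the counts in shared regions, have exact conditional binomial intervals. Shares at equal depth are the expected shares when each nucleus is drawn down to 3000 or 5000 counts, without shallower nuclei. The ratio code was tested on simulated data. Alternatives were a minimum of 5000 counts, other scalings (all peaks, TMM in edgeR 4.0.16), 80% reciprocal overlap, start sites alone, equal depth, clustering with the members or at resolution 2, and doublet removal. The ratio at equal depth is that of the shares of nuclei with a count, not of CPM. Named were all 10 members, the 3 regions with the highest and the 3 with the lowest ratio in progenitor-like and stroma-like nuclei, the 2 highest and 2 lowest genes of each list in progenitor-like nuclei, and the 3 genes most like each member. A gene that this rule would name is not reported here. The members and lists were chosen with earlier results of these data known.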

Additional observations from a re-analysis of the deposited data

Results flagged for a closer look

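For 3 members the ratios of progenitor-like and stroma-like nuclei had opposite signs with intervals clear of 0, and the difference between the classes was not tested. Col4a3 was at 0.63 in progenitor-like and -0.52 in stroma-like nuclei, Col4a1 at -0.29 and 0.12, and Lamb1 at 0.19 and -0.26. With 1 library per group these are differences between libraries. In stroma-like clusters 1, 4, 5 and 10 Col4a1 was at -0.23 (-0.35 to -0.12), 0.07, 0.03 and 0.22. Lamb1 was there at -0.19 (-0.38 to -0.007), 0.14, -0.04 and -0.18. For both genes the intervals in clusters 4, 5 and 10 hold 0. Against progenitor-like cluster 2 of Enl-WT, Lamb1 was at 0.28 in cluster 0 of Enl-T1 and -0.05 in cluster 6, and Col4a1 at -0.29 and -0.28.

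Outside the comparisons above, 8 member regions lay in the Enl-T1 peak list alone. A called peak holds counts by the way it is found, so the counts here are descriptions only. At 1.29 kb in Col4a1, next to Col4a2, there were 675 counts, and at 34.53 kb in Col4a1 474. Col4a2 held 424 at 72.68 kb, 436 at 108.61 kb and 333 at 136.56 kb, and Lama1 392 at 18.54 kb, 328 at 40.33 kb and 215 at 47.99 kb. The class with the highest CPM was smooth muscle or ureteric stroma-like for 3 (37.5%, against 12.8% of all regions in Enl-T1 alone), on 22, 13 and 17 counts, of which the region at 1.29 kb was at 10.02 CPM there and 9.98 in ureteric epithelium-like nuclei. It was endothelium-like for 2 (25%, against 5.16%), ureteric epithelium-like for 2 (25%, against 10.5%) and progenitor-like for 1 (12.5%, against 18.6%), that of Lama1 at 47.99 kb (3.01 CPM).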

How the results depend on the processing

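Of 410 member ratios recomputed, 358 stayed within the counting interval of the main value, 46 moved beyond it and 6 changed sign, and all 160 class levels recomputed with other clusterings stayed within theirs. The cause of a change was not tested. The ratios that changed sign were all small on 1 side or both: Lamb1 over the whole kidney scaled to all peaks (0.00643), Lamb2 over the whole kidney per base of peak (0.00207), Lamc1 with 80% reciprocal overlap in progenitor-like (0.0263) and ureteric epithelium-like nuclei (0.0159), and, at start sites alone, Col4a3 in progenitor-like (-0.0470) and Col4a1 in stroma-like nuclei (-0.0841). Scaled to all peaks, the median over the whole kidney was -0.14. In progenitor-like nuclei the count of members higher was 0 with 80% overlap and per base of peak, and the count lower was 0 at start sites, at equal depth, without doublets and per base of peak. In stroma-like nuclei the count lower was 1 with a minimum of 5000 counts, at equal depth and with the members in the clustering, and 0 at start sites. In ureteric epithelium-like nuclei the count higher was 0 with 80% overlap, at start sites, with TMM scaling, at equal depth, without doublets and per base of peak. In endothelium-like nuclei 80% overlap gave 1 higher and 1 lower. The values per base of peak and of single clusters were added after seeing the data. No paired analysis was possible because each group is 1 library. Depth limits the classes with few nuclei of Enl-T1 and single regions of few counts.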
